A study of Caenorhabditis elegans with 12 samples.

Results

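miR-70 (cel-miR-70 in the files) is 1 of the 114 Caenorhabditis elegans microRNAs with a probe on the NCode array, and its probe is printed as 3 spots. The microRNA was chosen by the name of the probe and by normalized ratios below 0 in worms that carry human alpha-synuclein, so those ratios are given as a description and without a test. The study set 3 models of Parkinson's disease against the wild-type strain N2 on 2-colour arrays. One strain is transgenic for human alpha-synuclein with the A53T change known from inherited disease. CB1111 carries the e1111 loss-of-function allele of cat-1, the transporter that loads monoamines into vesicles. VC1024 carries the gk448 loss-of-function allele of pdr-1, the worm orthologue of parkin. All worms, N2 included, were synchronized, grown at 20 °C on OP50 bacteria and taken at larval stage 4, and each of the 12 samples is an array of 1 strain population and N2, 4 per strain. N2 RNA came from 4 preparations, and the labels do not say which array received which. The promoter that drives the transgene is not given in the sources used here, and the array cannot measure the transgene.

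MicroRNAs are short RNAs, cut from hairpin precursors, that guide Argonaute proteins to messenger RNAs. Pairing of the seed at the 5′ end of the microRNA with sites in a messenger RNA lowers its translation or stability. In whole worms a level is a sum over all tissues, so that fewer cells with a microRNA and less of it per cell cannot be told apart. The study asked which microRNAs differ from wild type in each model.

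In the RefSeq gene table of the WBcel235 assembly, mir-70 (CELE_T10H9.7) lies on chromosome V from 6665536 to 6665635, over 100 bases. It falls inside the span of the protein-coding gene pmp-5 (CELE_T10H9.5, 6662191 to 6665813), which belongs to the peroxisomal family of ABC transporters, and lies 178 bases from that gene's right-hand end. The table gives neither strand nor exons, so it does not say whether mir-70 is in an intron of pmp-5. Of 7 genes within 10000 bases, 0 are other microRNA genes, so miR-70 has no clustered partner there. The others include str-180, a chemoreceptor gene 1651 bases away, and snb-1, which encodes the synaptic vesicle protein synaptobrevin, 9035 bases away.

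Scanner files for replicates 3 and 4 of cat-1 were the same in every value, so they count once here. That leaves 3 cat-1 arrays beside 4 of each of the other strains. Between 13 and 54 C. elegans probes gave a ratio on an array. The summed C. elegans signal ran from 9605509 to 94975916 in the N2 channel and from 54674001 to 331104189 in the strain channel. The late larval timing microRNAs let-7 and miR-48 gave an N2 signal on 10 and 11 of the 11 arrays. Of 8 probes of the embryonic miR-35 family, 4 gave an N2 signal on any array, on 2 arrays at most. The neuronal miR-124 was seen on 4 arrays and the muscle miR-1 on 11 in the N2 channel, while lsy-6, made in 1 taste neuron, was at 0 on all. N2 was the first channel and the strain the second on every array per the labels, with no dye swap. Signal B over signal A is read as strain over N2. That direction is likely from the labels, as the files do not name the dyes.

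miR-70 was measured on few spots. Over the 11 arrays, 10 of its 33 spots held a signal, on 6 arrays, and always in both channels. In alpha-synuclein 5 of 12 spots held one, on 3 arrays, in cat-1 it was 1 of 9 and in pdr-1 it was 4 of 12, on 2 arrays. All 3 spots were seen on alpha-synuclein replicate 2 and pdr-1 replicate 3, while the 4 other arrays rested on 1 spot each. Nothing was seen on alpha-synuclein replicate 4, cat-1 replicates 1 and 3 and pdr-1 replicates 1 and 2.

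Detection of miR-70 went with how much of the panel an array measured. The 6 arrays with a miR-70 ratio had ratios for 32 to 54 probes, and the 5 arrays without one for 13 to 36. The ranges overlap by pdr-1 replicate 4 (32 probes, 1 spot) and cat-1 replicate 1 (36 probes, no spot). The lowest C. elegans signal listed in the N2 channel also differed, from 25855 on alpha-synuclein replicate 3 to 518463 on pdr-1 replicate 1. On the unscaled files that last value is above the N2 signal of miR-70 on either pdr-1 array that measured it. Spots were also empty where another spot of the probe was well above the lowest signal, so an empty spot gives no level of miR-70 and is not read as absence. The part of array coverage in the miR-70 ratios was not tested.

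**Figure D1:**
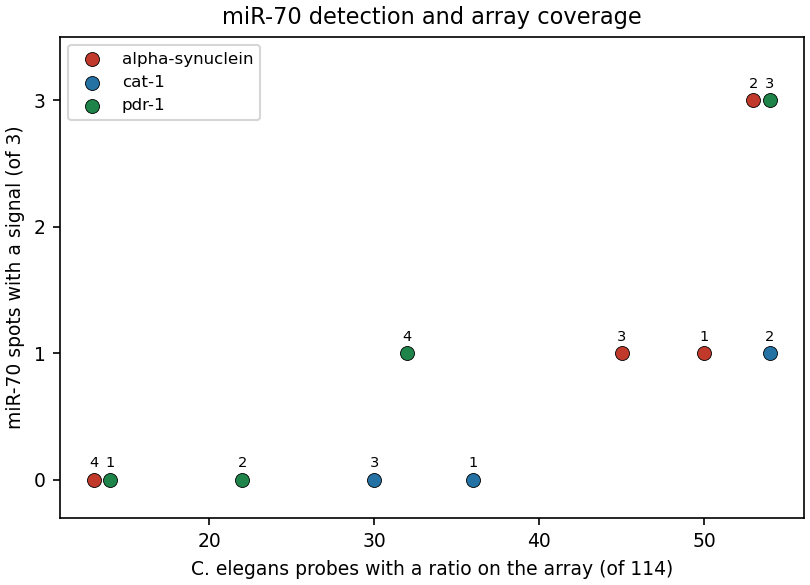
Number of miR-70 spots with a signal, of 3, against the number of C. elegans probes with a ratio on the array. Each point is 1 array, coloured by strain and numbered by replicate. The arrays with miR-70 lie between 32 and 54 probes, those without it between 13 and 36.

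On alpha-synuclein replicate 1, the single spot read 1577779 in N2 and 212395 in the strain. Its N2 signal was 16.6 times the lowest listed on that array, yet the other two spots of the probe were at 0 in both channels. Such loss of spots was common on this array, where 30 of 50 measured probes (60%) had 1 spot. On replicate 2, the 3 spots read 1751159, 2069431 and 1607407 in N2 and 3138072, 3410790 and 2570436 in the strain. On replicate 3, the single spot read 190564 in N2 and 1776403 in the strain. The unnormalized signal of miR-70 was thus lower in the strain than in N2 on replicate 1 and higher on replicates 2 and 3.

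On cat-1 replicate 2, the 1 spot read 734066 in N2 and 1764146 in the mutant. On pdr-1 replicate 3, the spots read 434844, 487608 and 447807 in N2 and 1198855, 1257894 and 1246864 in the mutant. On pdr-1 replicate 4, the 1 spot read 337275 in N2 and 1094951 in the mutant. The pdr-1 arrays lay nearest the lower end of the measured range, at 1.45 and 1.37 times the lowest mutant signal listed and 3.41 and 2.13 times the lowest N2 signal. On the alpha-synuclein and cat-1 arrays the N2 signal of miR-70 was 7.37 to 16.6 times the lowest. Its strain signal was nearer the lowest on alpha-synuclein replicates 1 and 3, at 2.91 times on each. It was 6.73 times the lowest on alpha-synuclein replicate 2 and 11.1 times on cat-1 replicate 2.

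**Figure D2:**
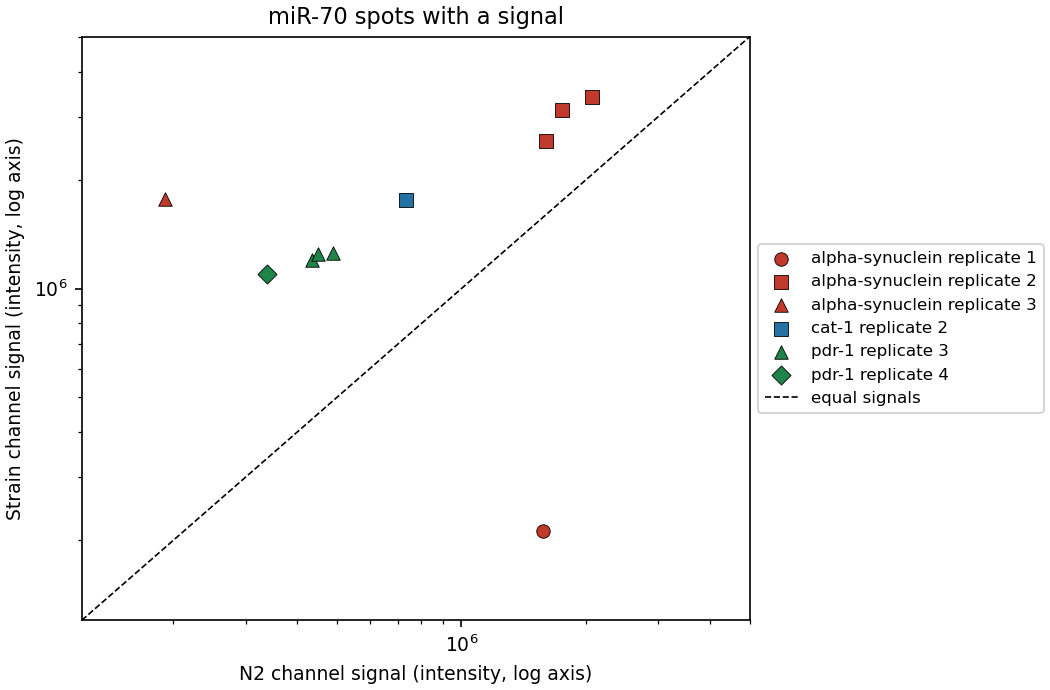
Signal of each of the 10 miR-70 spots in the strain channel against the N2 channel, both as intensity on log axes, with colour for the strain and marker for the replicate. The dashed line marks equal signals. Alpha-synuclein replicate 1 is the 1 array below the line, and the spots of the 2 arrays with 3 spots lie close together.

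Before normalization, spots of the probe agreed closely where all 3 were seen. Their unnormalized log2 ratios had an SD of 0.09 on alpha-synuclein replicate 2 and 0.06 on pdr-1 replicate 3. The median SD over the probes with 3 spots was 0.33 on the first of these arrays (24 probes) and 0.36 on the second (32 probes). After loess normalization the spots lay further apart on alpha-synuclein replicate 2, at -0.02, 0.06 and -0.43. On pdr-1 replicate 3 they stood at -0.98, -0.97 and -0.88. On alpha-synuclein replicate 1, where miR-70 has no such check, the median SD over the 5 probes with 3 spots was 0.84, the highest of the 11 arrays.

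Before normalization, miR-70 ratios lay above 0 on 5 of 6 arrays. They stood at -2.89, 0.75 and 3.22 on alpha-synuclein replicates 1, 2 and 3 (mean 0.36 ± 3.08 SD, n = 3), at 1.26 on cat-1 replicate 2 and at 1.44 and 1.70 on pdr-1 replicates 3 and 4. The whole array moved with them. The median probe stood at 0.00, 1.99 and 4.55 on those alpha-synuclein arrays, at 0.79 on the cat-1 array and at 2.50 and 1.69 on the pdr-1 arrays. In the alpha-synuclein strain miR-70 was thus low only relative to the other microRNAs of the same array, except on replicate 1, where the unnormalized ratio was itself below 0. Counted from the lowest unnormalized ratio, it ranked second of 50 probes on replicate 1, 7 of 53 on replicate 2 and 3 of 45 on replicate 3. After loess normalization its rank on replicate 2 was 20, while on the other two it stayed at 2 and 3.

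The mutants did not share 1 position. On pdr-1 replicate 3 miR-70 ranked 3 of 54 from the lowest, before and after normalization. On pdr-1 replicate 4 it ranked 17 of 32 before normalization, or 16 with the direction of that array turned. After loess normalization its rank there was 12. On cat-1 replicate 2 miR-70 ranked 46 of 54 before normalization and 51 after, near the top.

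**Figure D3:**
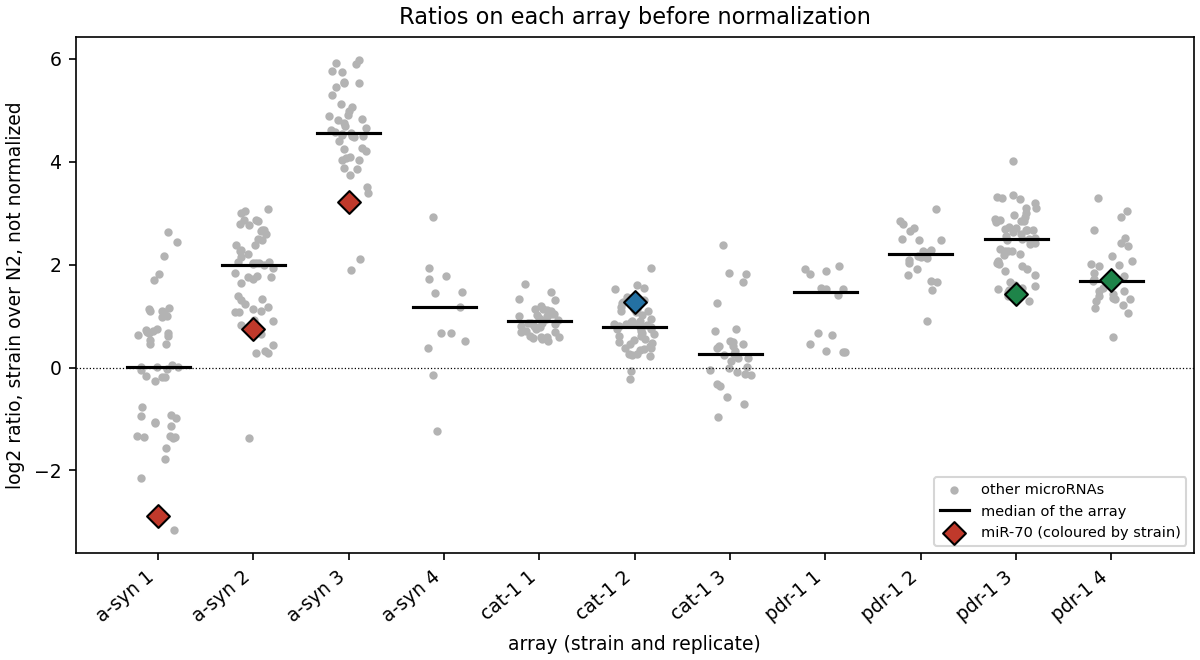
Unnormalized log2 ratio of strain over N2 for every measured C. elegans microRNA on the 11 arrays (grey points), with the array's median (bar) and miR-70 as a diamond coloured by strain. The median moves from 0.00 to 4.55 between arrays, and miR-70 lies below it on the 3 alpha-synuclein arrays and pdr-1 replicate 3.

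As a share of the summed C. elegans signal in a channel, with empty spots counted as 0, miR-70 held 2.24% of N2 and 0.360% of strain signal on alpha-synuclein replicate 1. It held 5.72% and 3.32% on replicate 2, and 1.98% and 0.537% on replicate 3. The strain's share was thus below that of N2 on each of the 3 arrays, at 0.161, 0.580 and 0.270 of it. On cat-1 replicate 2 the shares were 0.861% in N2 and 1.26% in the mutant, 1.47 times as much. On pdr-1 replicate 3 they were 2.33% and 1.26%, and on replicate 4 they were 0.651% and 0.690%, which exchange if the direction of that array is turned.

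With empty spots and arrays at 0, the order of the mean shares across conditions was N2 (1.25% ± 1.76 SD, n = 11), alpha-synuclein (1.05% ± 1.53, n = 4), pdr-1 (0.487% ± 0.608, n = 4) and cat-1 (0.421% ± 0.730, n = 3). Every condition held arrays at 0, and no neighbours in this order differed by more than their spread. The order depended on the way of counting. Shares were also taken of all spots of a channel, control and other spots included. The means were then 0.438% in N2, 0.591% in alpha-synuclein, 0.280% in pdr-1 and 0.190% in cat-1. Each N2 mean given here pools the N2 channels of arrays of all strains. In this count, the N2 channels of the alpha-synuclein arrays themselves averaged 0.840%, above that strain's mean. Those of the pdr-1 arrays averaged 0.264% and those of the cat-1 arrays 0.134%, each below the mutant's mean. With the mean of the spots seen in place of each empty spot, the summed signal unchanged and empty arrays left out, the means rose. They were 4.21% in N2 (6 arrays), 3.79% in cat-1 (1 array), 2.002% in alpha-synuclein (3 arrays) and 1.66% in pdr-1 (2 arrays). With pdr-1 replicate 4 turned, N2 stood at 1.26% and pdr-1 at 0.477%, in the first order. In N2, which was measured on every array, the share ran from 0 through a median of 0.651% to 5.72%. N2 was at 0 on 5 of 11 arrays, and its highest 4 values came from 3 alpha-synuclein arrays and 1 pdr-1 array. The alpha-synuclein arrays therefore paired the strain with N2 channels in which the miR-70 share was high, at 1.98% to 5.72% where detected, against 0.861% on the cat-1 array. Whether that difference in the N2 channel plays a part in the lower ratios was not tested.

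**Figure D4:**
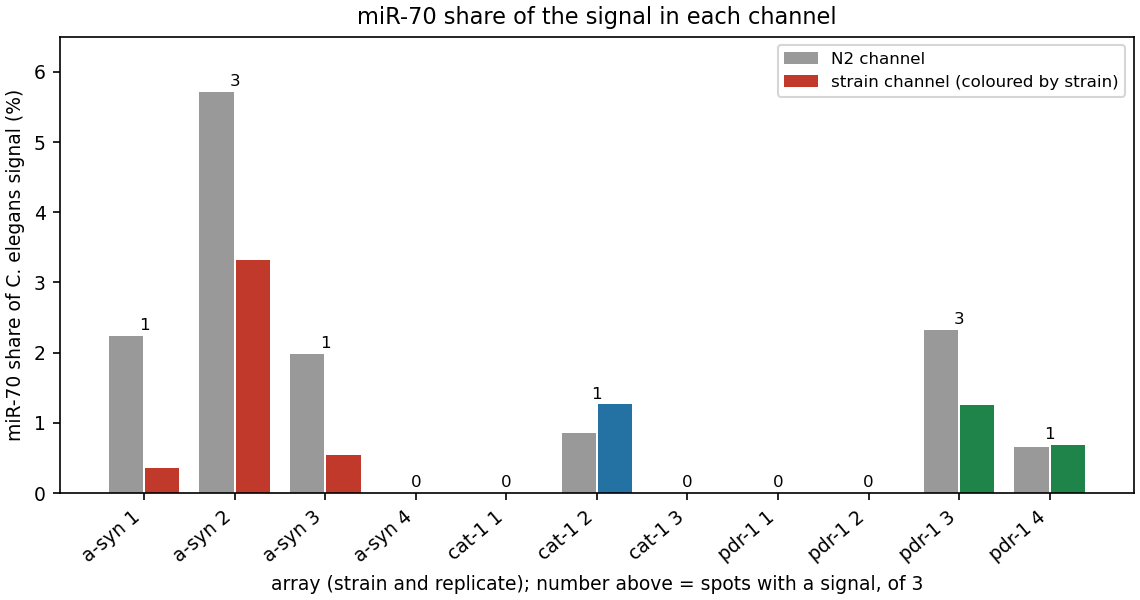
Share of the summed C. elegans signal held by miR-70 in the N2 channel (grey) and the strain channel (colour) of each array, in percent, with the number of spots with a signal above each pair. The N2 bar is the higher one on the 3 alpha-synuclein arrays and pdr-1 replicate 3, and 5 arrays are at 0.

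After loess normalization within arrays, miR-70 stood at -2.22, -0.13 and -1.78 on alpha-synuclein replicates 1, 2 and 3, with a mean of -1.38 ± 1.11 (SD, n = 3 arrays). The value of replicate 2, the array with 3 spots, lay close to 0, and the 2 lower ones rested on 1 spot each. On replicate 2 the loess curve at the signal of miR-70 stood at 0.87, well below the array's median ratio of 1.99, so the value depends there on how the trend with intensity is treated. Median centring gave -1.01 on this array and centring on summed signals -0.79. In the comparison of this strain with N2, 5 of 50 microRNAs passed limma with Benjamini-Hochberg adjustment (10%). That count came to 0 with each microRNA's own spread in place of the shared one and to 0 without alpha-synuclein replicate 1. Nothing is read from it for miR-70, which was chosen on the same ratios.

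The other two strains give values that the choice of miR-70 did not use, although their arrays may share N2 preparations with those of alpha-synuclein. In the cat-1 mutant miR-70 stood at 0.50 ± 0.64 (SE) on 1 array, with a 95% interval from -0.77 to 1.77, and did not pass (limma, adjusted p = 0.98). That value is 1 spot of 1 array with no replicate check, and its error assumes that it varies like the other microRNAs and strains. In the pdr-1 mutant it stood at -0.94 and -0.10 on 2 arrays, with a mean of -0.52 ± 0.45 (SE) and an interval from -1.42 to 0.38 (limma, adjusted p = 0.905). Both intervals include 0 and also changes of more than 1 log2 unit. Of 48 microRNAs tested in each mutant by limma, 0 passed (0%), and 4 in cat-1 and 2 in pdr-1 had an unadjusted p under 0.05. With each microRNA's own spread in place of the shared one, 0 passed in both as well, while cat-1 had 4 calls when fitted alone and 1 with scale normalization between arrays.

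The mutants themselves differed at miR-70 by 1.02 ± 0.79 (SE), cat-1 over pdr-1, from means of 0.50 and -0.52. The interval ran from -0.53 to 2.57 and the difference did not pass (limma, adjusted p = 0.981). It rests on the same single cat-1 value and on the same assumption. In this comparison 0 of 46 microRNAs passed (0%), with 0 at an unadjusted p under 0.05. The difference turned to -0.30 without normalization within arrays. Side by side and without a test, the alpha-synuclein values of -2.22 to -0.13 overlapped the pdr-1 values of -0.94 and -0.10 between -0.94 and -0.13. The single cat-1 value of 0.50 lay above all 5 others.

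In pdr-1, replicates 1 and 4, of the same dye orientation per the labels, correlated at -0.59 over the 14 microRNAs measured on both. That was the lowest correlation of any 2 arrays. A low correlation over so few microRNAs does not show that an array is reversed, and its cause was not tested. Each of these 2 arrays was therefore also turned as an alternative. Replicates 3 and 4, which measured miR-70, correlated at 0.42 over 31 microRNAs. Replicate 1 was near 0 with replicate 2 (0.02) and replicate 3 (-0.02). miR-70 was not measured on replicate 1, so turning that array leaves its mean at -0.52. Turning replicate 4 gives -0.42 (adjusted p = 0.939), below 0 as before.

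Arrays differed in how far the processing moved miR-70. Alpha-synuclein replicate 1 stayed between -2.89 and -2.22 under no normalization, median centring, summed-signal centring and both loess spans. Replicate 3 moved from 3.22 without normalization to between -1.89 and -1.35 with any of the others. Replicate 2 moved from 0.75 to between -1.01 and -0.13. The cat-1 value stayed between 0.48 and 0.55 once an array was centred in any of these ways, and pdr-1 replicate 3 between -1.05 and -0.89. pdr-1 replicate 4 changed sign, from 0.10 with median centring to -0.12 with the wider loess span.

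**Figure D5:**
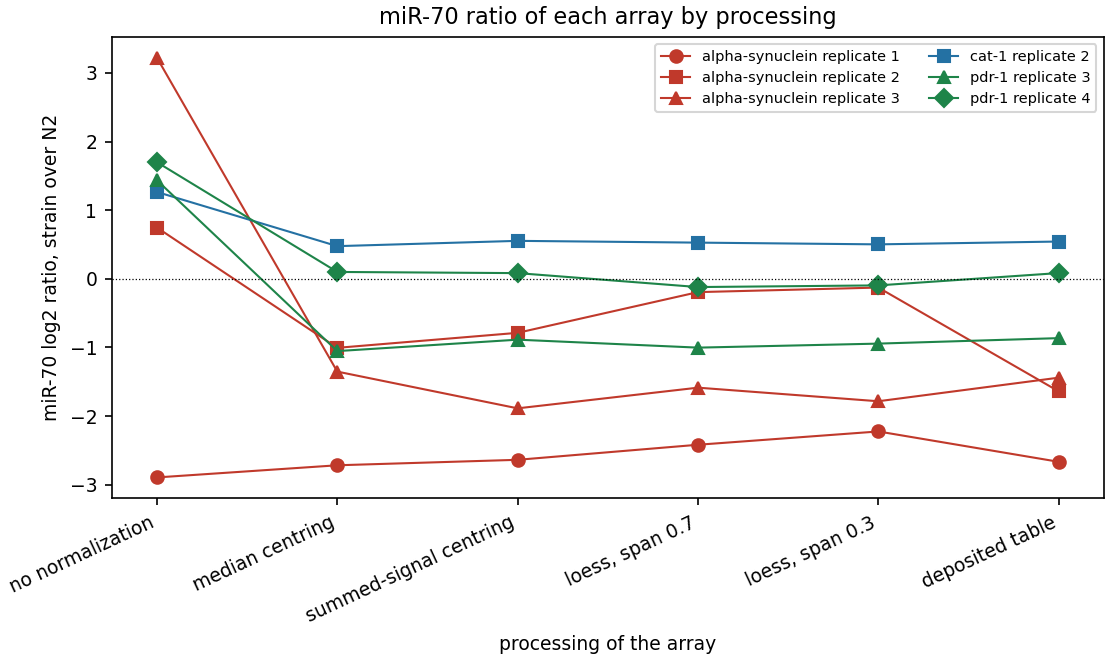
miR-70 log2 ratio of strain over N2 on each of the 6 arrays that measured it, under no normalization, 4 normalizations within arrays and in the authors' deposited table. Lines join the values of 1 array. Ratios of the alpha-synuclein strain range from -2.89 to 3.22 without normalization, and all lie below 0 under every other processing plotted.

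With ratios kept only where all 3 spots held a signal, an alternative chosen after seeing the data, alpha-synuclein had 1 array at -0.13 and pdr-1 1 array at -0.94. The order of these strains was then the opposite of that of their means. Scale normalization between arrays moved the alpha-synuclein mean to -0.75. Leaving out alpha-synuclein replicate 1, 2 or 3 moved that strain's mean to -0.96, -2.003 or -1.18. Leaving out pdr-1 replicate 3 moved the pdr-1 mean to -0.10, and leaving out replicate 4 moved it to -0.94.

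The authors' deposited table gave miR-70 at -2.67, -1.64 and -1.44 on alpha-synuclein replicates 1, 2 and 3. For replicate 2, spot values in the deposited table of -1.20, -2.15 and -1.57 do not match the scanner file, where the same spots centred on summed signals average -0.77 with S-flagged spots kept. The column of that array in the deposited table correlated at 0.72 with the scanner ratios over 126 spots, while 10 other columns differed from theirs by a constant alone. In cat-1 the deposited table held 0.54 for replicate 2 and 0.43 for replicate 4. The latter comes from a spot that is at 0 in the scanner file of replicate 4, which repeats that of replicate 3. In pdr-1 the deposited table held -0.86 for replicate 3 and 0.08 for replicate 4.

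The microRNAs whose normalized ratios ran most like those of miR-70 were looked for among the 38 with at least 5 arrays in common. These correlations describe arrays that share a normalization and differ in strain and coverage. The arrays with miR-70 include the 3 alpha-synuclein arrays by whose ratios it was chosen. The microRNAs named are the extremes of 38 coefficients over 5 or 6 arrays each, so their values are a description and were not tested. miR-48, a let-7 relative that times larval fates, came first (Pearson r 0.72, Spearman rho 0.60, 6 arrays), followed by miR-80 of the miR-58 family (0.70 and 0.77, 6 arrays) and miR-233 (0.65 and 0.50, 5 arrays). The median over the 38 was 0.03. With median centring in place of loess the muscle microRNA miR-1 came first (r 0.91, 6 arrays) and miR-48 was at rank 4. miR-48 stood at -0.99, -0.41 and -0.30 on the 3 alpha-synuclein arrays with miR-70, at 0.01 on the cat-1 array and at -0.56 and -0.47 on the pdr-1 arrays. Among these 6 arrays it thus had its lowest value on the same array as miR-70, but on alpha-synuclein replicates 2 and 3 it lay above both pdr-1 arrays. Lower values of miR-48 came from arrays that did not measure miR-70, at -2.18 on alpha-synuclein replicate 4 and -1.25 on pdr-1 replicate 2. miR-80 stood at -0.999, -0.87 and -0.65 on the 3 alpha-synuclein arrays with miR-70, at -0.21 on the cat-1 array and at -0.71 and -0.23 on the pdr-1 arrays. Its 4 lowest values were on those 3 alpha-synuclein arrays and pdr-1 replicate 3. On alpha-synuclein replicate 4, which did not measure miR-70, miR-80 had its highest value, 0.11. miR-54, of the miR-51 family, ran most opposite (r -0.89, rho -0.90, 5 arrays), at 1.16 on alpha-synuclein replicate 1 and -0.07 on cat-1 replicate 2.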

How the data were processed

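Small RNA under 200 nt from larval stage 4 worms was dye-labelled and put on 2-colour NCode arrays, per the labels' protocols. The deposited scanner files give, per the file headers, 1 signal intensity and 1 flag letter per channel for each of 4608 spots. The scanner, the background method and what each flag means were not given in the sources used here. An empty spot is listed at 0 in both channels, so a signal above 0 was taken as above background. The authors' deposited table holds log2 ratios. In 10 of its 12 columns they equal the log2 ratio of signal B over signal A minus 1 constant per array (SD of the difference over spots under 0.01). The columns of alpha-synuclein replicate 2 and cat-1 replicate 4 do not, so their centring remains unknown. The column medians lay between -0.06 and 0.40, and the table holds 0 further columns of per-sample values.

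S-flagged spots were dropped. A loess curve (span 0.3, 4 iterations) through the C. elegans spots of each array was subtracted from the log2 ratios, and the spots of a probe were averaged. Probes with a signal on at least 4 of 11 distinct arrays were kept, 50 of 114. The test was the two-sided one of limma 3.58.1 in R 4.3.3, with a mean for each strain and a common spread (lmFit and eBayes). P-values were adjusted by Benjamini-Hochberg over all probes of a comparison, with a threshold of 0.05. The steps were tested on simulated ratios with the real pattern of missing values. limma estimated infinite prior degrees of freedom, and every microRNA took the SD of 0.64, which is pooled from strains of unequal spread. Levels are given as the share of the summed C. elegans signal of a channel. Precision is limited by the number of arrays.

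miR-70, the microRNAs set beside it and the tests were chosen with earlier results of these data known. Beside miR-70, the rule names the 3 microRNAs with the highest and the 1 with the lowest correlation of ratios over at least 5 shared arrays, and the genes at its locus. Relatives by seed were not looked for, as no mature sequences were used here. Alternatives concerned normalization, flags, averaging, filters, the model, a replicate block, the direction of 2 pdr-1 arrays, the deposited table and leaving out each array. The files used here give no slide, scan date or background column, so those alternatives were not run.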

Additional observations from a re-analysis of the deposited data

Results flagged for a closer look

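On the 4 alpha-synuclein arrays, the share of the strain signal held by miR-70 was 0.360%, 3.32%, 0.537% and 0%. Replicate 2 stood far from the others, with a gap to its nearest neighbour of 0.838 of the whole range. Replicate 2 held a signal on 3 spots, replicates 1 and 3 on 1 each and replicate 4 on 0, and empty spots count as 0 in these shares. The shares or ratios of 4 groups were looked at in this way. Chance singles out about 1 in 20 groups of normally spread values, which shares with empty spots at 0 are not, so that rate is not applied here. The authors' deposited table holds a miR-70 value of 0.433 for cat-1 replicate 4, at a spot with no signal in the scanner file of that array.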

How the results depend on the processing

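miR-70 in cat-1 (17 alternatives, left-out arrays aside) stayed above 0, between 0.47 and 1.26, with adjusted p-values of 0.55 to 0.987. In pdr-1 (17, ratios from 3 spots also aside) it lay between -0.58 and 1.57, with adjusted p-values of 0.196 to 0.97. Without normalization within arrays, alpha-synuclein turned to 0.36, pdr-1 to 1.57 (adjusted p = 0.196) and cat-1 over pdr-1 to -0.30 (adjusted p = 0.881). Ratios from 3 spots only gave -0.13 in alpha-synuclein and -0.94 in pdr-1, on 1 array each. The pdr-1 value is below the range given above. Scale normalization between arrays gave -0.75 in alpha-synuclein. With each array left out, the values ranged from -2.003 to -0.96 in alpha-synuclein, from -0.94 to -0.10 in pdr-1 and from 0.60 to 1.45 for cat-1 over pdr-1. Without cat-1 replicate 2 there is no cat-1 value. The number of microRNAs called in alpha-synuclein, 5, was 18 without normalization, 8 with median centring, 2 with summed-signal centring, 0 with scale normalization, 3 with ratios on at least 6 arrays, 1 with the strain fitted alone, 0 in the plain test, 0 in the deposited table without its 2 unmatched columns, and 0 to 5 with each array left out. In cat-1 it was 1 with scale normalization, 4 fitted alone and 1 with 3 spots only, and in pdr-1 1 with 3 spots only. The cause was not tested. Shares were also taken with the mean of the spots seen in place of each empty spot, the summed signal unchanged and empty arrays left out. They were then 6.125% in N2 and 2.002% in the strain on alpha-synuclein arrays, 2.58% and 3.79% in N2 and mutant on cat-1 arrays and 2.14% and 1.66% on pdr-1 arrays. With empty spots at 0 on the same arrays, they were 3.31% and 1.40%, 0.861% and 1.26%, and 1.49% and 0.973%. Same-numbered arrays did not deviate together (r over 0.1 in 1 of 10 pairs, -0.78 to 0.11), so the numbers are not taken as pairs. With the replicate block, miR-70 stood at -1.42 in alpha-synuclein, 0.82 in cat-1 (adjusted p = 0.985), -0.58 in pdr-1 (adjusted p = 0.926) and 1.40 for cat-1 over pdr-1 (adjusted p = 0.984).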

Other observations

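Of the 23 miR-70 spots at 0, 20 carried the flag X in both channels and 3 the flag Z. The 3 spot positions of the probe held a signal on 3, 4 and 3 of the 11 arrays.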
